A study of Mus musculus with 2 samples.

Results

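The macrophage and microglia genes described here are 42 genes of mononuclear phagocytes, taken from a fixed list of symbols and matched to the Ensembl identifiers of a raw count table. All 42 were found, out of 55416 genes in the table. They were separated into 21 pan-macrophage genes, 7 microglia genes, 8 genes of perivascular or resident macrophages, 5 lipid-associated genes and the ligand Csf1. Counts came from bulk RNA-seq of 2 murine rhabdoid tumors (RT), malignant tumors that mostly follow loss of the SWI/SNF subunit Smarcb1. Both tumors carried the same alleles, Dppa3-cre::Smarcb1 Fl/+ on a C57BL/6 background, in which Cre is expressed from the locus of Dppa3, a gene of primordial germ cells (PGC), and only 1 Smarcb1 allele is floxed. The labels place 1 tumor intracranially (trigeminal nerve) and 1 extracranially (facial, maxillar), and give MYC as the class of each. Neither age nor treatment was stated, and control tissue is not among the samples used here. Each label thus has 1 library, so no difference below has a replicate check, and location cannot be told apart from the individual tumor or its dissection.

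Macrophages depend on signals through the receptor Csf1r, which binds the ligands CSF1 and IL-34, and their identity rests on transcription factors such as PU.1, the product of Spi1. Resident cells of the brain (microglia), of vessel walls and of other tissues share a common set of genes for phagocytosis, complement and Fc receptors, and differ in smaller sets that mark each niche. Macrophages that have taken up much lipid or debris often express Trem2, Apoe, Gpnmb and Lgals3. In tumors, macrophages are frequently the most numerous immune cells.

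The intracranial-labelled library held 34545846 counts and the extracranial-labelled one 26915696, and 3 counts, used as the floor, equal 0.0863 and 0.112 CPM (the count scaled to a common library size). The targeted gene Smarcb1 had 365 and 530 counts. Epithelium set the libraries apart before any macrophage gene was considered, because 8 keratinocyte genes summed to 21435 CPM in the intracranial-labelled library and to 0.598 CPM in the other, where 5 of the 8 had 0 counts. The 10 neutrophil genes summed to 720.2 and 1.12 CPM. Squamous epithelium and neutrophils are unusual for tissue inside the skull, and astrocyte and oligodendrocyte genes were near the floor in both libraries (5.64 and 1.98 CPM summed over 7 genes, Olig2 at 0 counts in both). These contents go against the label intracranial, and whether the labels are correct, or were exchanged, was not tested. The libraries are therefore called by their labels throughout, and every direction below rests on those labels. How much of the differences below goes with these tissue contents was not tested.

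Macrophage genes were abundant in both tumors and were, as a list, higher in the extracranial-labelled library. Together the 42 genes took 1.45% of all counts in the intracranial-labelled library and 3.10% in the extracranial-labelled library, or 14464 and 31199 CPM, which is 2.16-fold. The ratio extracranial over intracranial was above 1 for 33 of 42 genes, and its median was 1.24 on the log2 scale. Over the 24490 genes with a ratio the median was -0.04, and 45.8% had a ratio above 1. A gene was called where the whole 95% counting interval of its ratio lay beyond 2-fold, an interval that covers counting error only. Of the 42 genes, 24 were called higher in the extracranial-labelled library and 2 (Cd163 and Lyve1) higher in the intracranial-labelled library. By the ratio alone these counts were 25 and 5, and in an exact test of edgeR that assumes a biological coefficient of variation of 0.4 they were 1 (Fcrls) and 1 (Lyve1). The interval rule called 5.86% of the 21977 genes with at least 10 counts in the first direction and 9.77% in the second. Most members are well expressed, and among the 15582 genes with at least 100 counts the shares were 6.21% and 9.58%. Beyond 4-fold, the calls were Aif1 and Fcrls on the extracranial side and Cd163 and Lyve1 on the other, against 1.78% and 5.41% of all genes. In a bulk sample, fewer macrophages and less of their RNA per cell cannot be told apart.

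**Figure D1:**
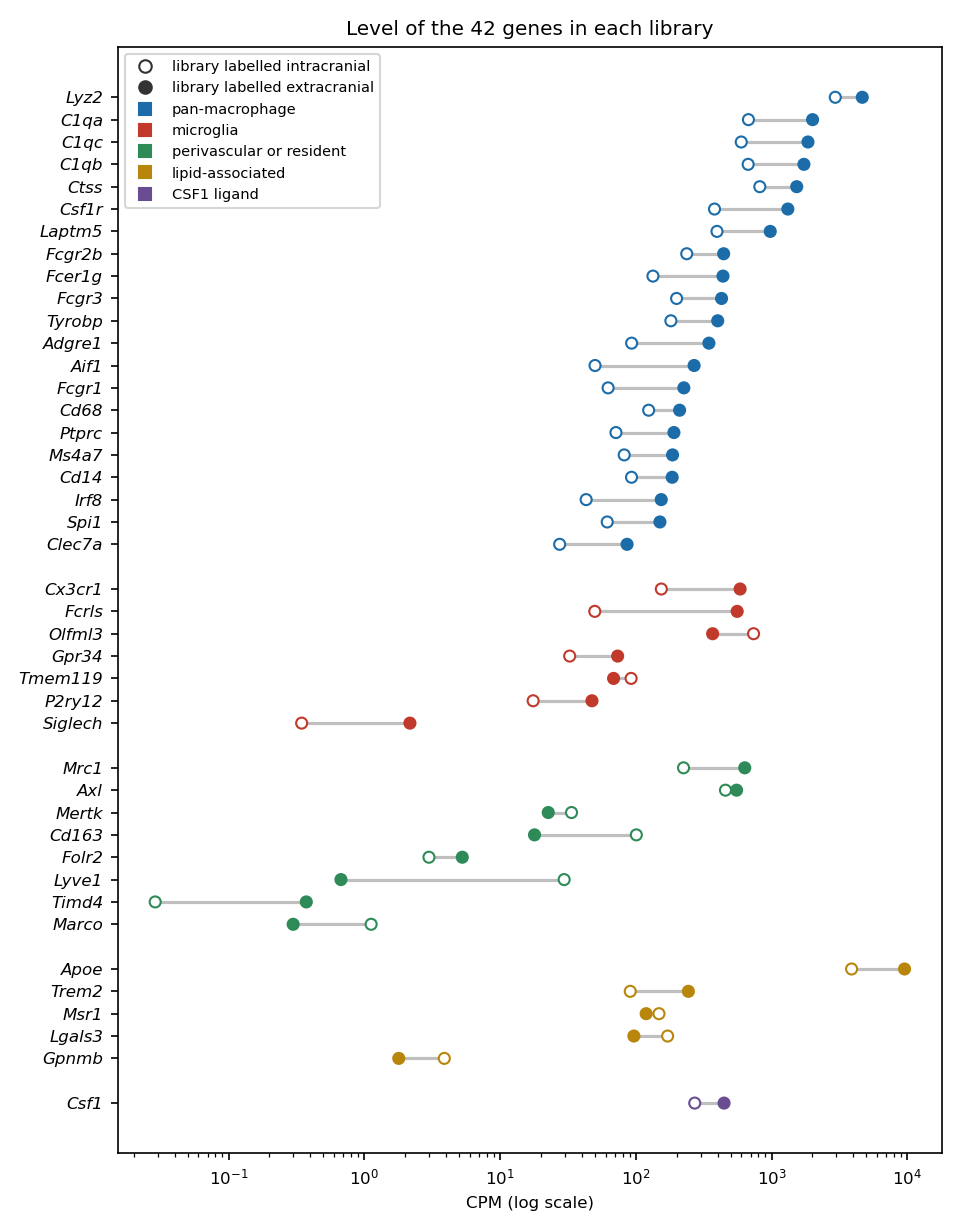
Level of each of the 42 genes in CPM (log axis), with open circles for the intracranial-labelled library, filled circles for the extracranial-labelled library and colors for the groups of genes. Filled circles lie to the right of open ones for 33 genes, including all 21 pan-macrophage genes, while Lyve1 and Cd163 show the widest gaps in the other direction.

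Of the pan-macrophage genes, 21 of 21 had a ratio above 1, and 16 were called higher in the extracranial-labelled library. Their summed level was 7953 CPM in the intracranial-labelled library and 17802 CPM in the other (2.24-fold), and their median log2 ratio was 1.36, with a range of 0.66 to 2.42. In what follows, paired counts and levels give the intracranial-labelled library first, and parentheses hold the log2 ratio and its 95% interval. The groups of genes are compared with this median, which cancels the scaling of the libraries.

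C1qa, C1qb and C1qc encode the A, B and C chains of C1q, which assemble in one molecule and start the classical complement cascade. C1qa had 23483 counts (675.8 CPM, 95% interval 667 to 685) in the intracranial-labelled library and 53683 counts (2006 CPM, 1989 to 2023) in the other. For C1qb the counts were 23371 and 46352, and for C1qc 20789 and 49652. The 3 chains thus lay close together in each library and were each called, with log2 ratios of 1.57 (1.55 to 1.59), 1.36 (1.34 to 1.39) and 1.63 (1.61 to 1.66). Per kilobase of exon, C1qa exceeded C1qb 1.05-fold in the intracranial-labelled library and 1.21-fold in the other, and C1qc 2.10-fold and 2.01-fold, so the balance of the chains moved far less than their level. The 3 genes are neighbors on chromosome 4.

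Csf1r, the receptor that macrophages need to survive, was measured at 13206 and 35302 counts, which is 380.1 CPM (373.6 to 386.6) and 1319 CPM (1306 to 1333). Its log2 ratio of 1.80 (1.77 to 1.82) was among the larger ones of the group. Part of its exon sequence (873 bases) overlaps Hmgxb3 on the opposite strand, a gene with only 477 and 413 counts. Adgre1, which encodes the surface antigen F4/80, had 3238 and 9250 counts (1.89, 1.83 to 1.95), and Fcgr1, the high-affinity receptor for IgG, had 2172 and 6047 counts (1.85, 1.78 to 1.93). The transcription factor Irf8 was at 43.1 CPM in the intracranial-labelled library and at 154 CPM in the other (1.84, 1.75 to 1.92). The largest ratio in the group belonged to Aif1, whose product IBA1 binds actin and is the usual stain for microglia and macrophages. Aif1 had 1740 counts (50.1 CPM, 47.8 to 52.5) and 7196 counts (268.9 CPM, 262.7 to 275.2), a 5.37-fold difference with a log2 ratio of 2.42 (2.35 to 2.50).

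A cluster of genes lay near the group's median. Spi1 had 2140 and 4029 counts (1.29, 1.21 to 1.37), close to Laptm5, a lysosomal membrane protein of blood cells, with 13775 and 26185 counts (1.30, 1.27 to 1.33). Ptprc, the pan-leukocyte antigen CD45, had 2482 and 5109 counts (1.42, 1.35 to 1.49), and the fungal pattern receptor Clec7a 955 and 2307 counts (1.65, 1.54 to 1.76). Ms4a7, a membrane protein of tissue macrophages, had 2855 and 4992 counts (1.18, 1.12 to 1.25). Among the adaptor chains that carry activating signals, Tyrobp (DAP12) had 6301 and 10740 counts (1.15, 1.10 to 1.19) and Fcer1g, the common gamma chain of Fc receptors, 4648 and 11742 counts (1.71, 1.66 to 1.76). All of these were called.

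The remaining 5 genes of the group had ratios above 1 and were not called. Lyz2 (lysozyme) had 102495 and 124735 counts, or 2950 and 4661 CPM, and the smallest log2 ratio of the group at 0.66 (0.65 to 0.67). Its near-identical copy Lyz1, with 7474 and 9423 counts, may share reads with it. For Cd68, a lysosomal glycoprotein, the counts were 4321 and 5626 (0.76, 0.70 to 0.82), and for Ctss, the cathepsin that trims the invariant chain of MHC class II, 28475 and 41017 (0.90, 0.88 to 0.93). Fcgr2b, the inhibitory IgG receptor, had 8246 and 11880 counts (0.90, 0.86 to 0.94), whereas its activating relative Fcgr3, with 6942 and 11463 counts, was called at 1.10 (1.06 to 1.14). Cd14, the co-receptor for bacterial lipopolysaccharide, lay at 3231 and 4960 counts (0.995, 0.931 to 1.06). Relative to the group's median, the log2 ratio of Lyz2 differed by -0.70 and that of Aif1 by 1.06. Aif1 and Cd68, which both serve as general macrophage stains, thus stood at a per-kilobase ratio of 0.330 in the intracranial-labelled library and 1.05 in the other. Lyz2, Cd14, Fcer1g and Tyrobp are expressed by neutrophils as well, whose genes S100a8 and S100a9 had 8970 and 14455 counts in the intracranial-labelled library against 9 and 13.

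**Figure D2:**
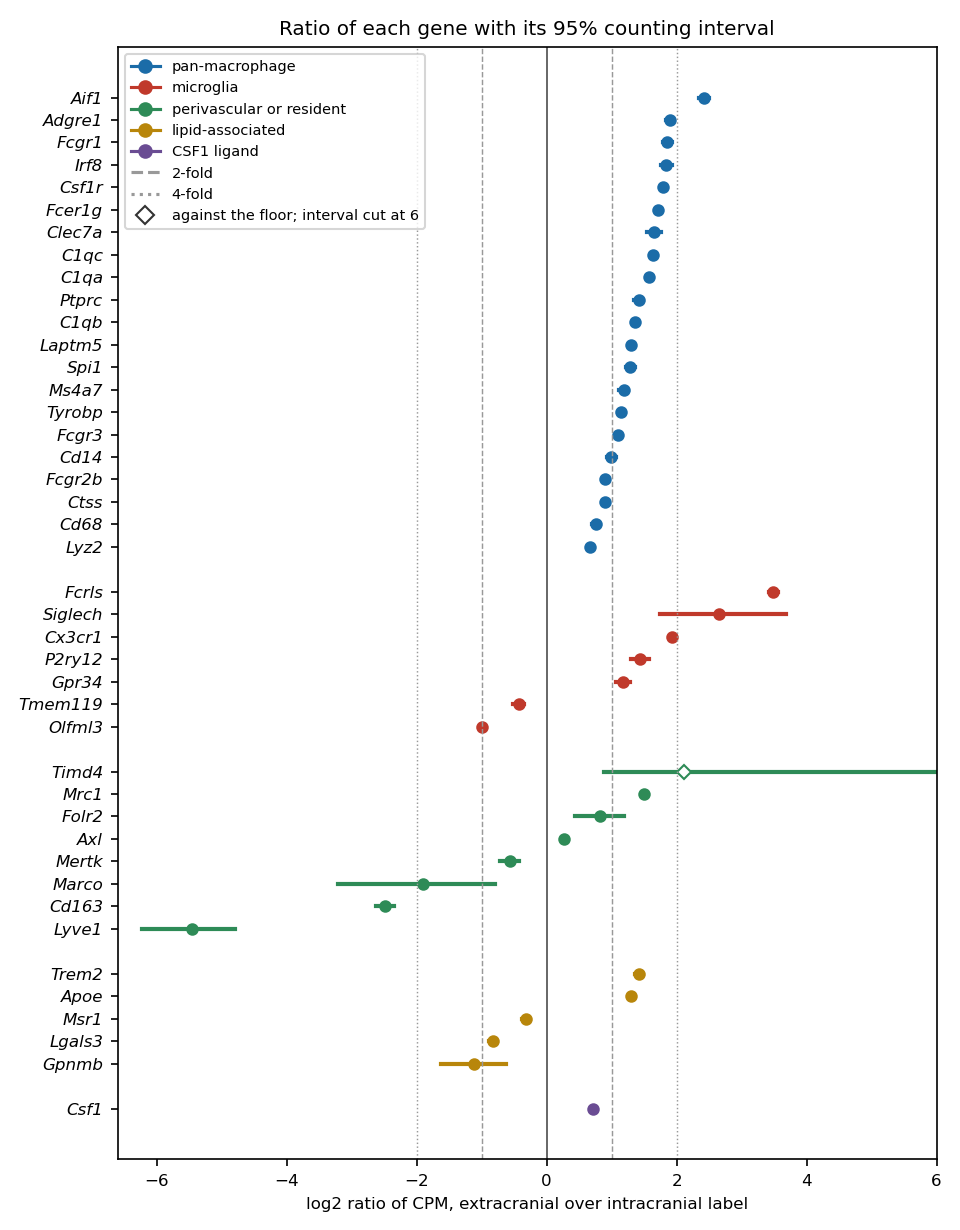
Log2 ratio of CPM, extracranial over intracranial label, for each gene with its 95% counting interval. Dashed and dotted lines mark 2-fold and 4-fold, and Timd4 (1 and 10 counts) is drawn against the floor of 3 counts. Pan-macrophage genes form a narrow band from 0.66 to 2.42, and the other groups spread to both sides of 0.

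Since Spi1 is itself a member, the promoters of the list were searched for the PU.1 core motif GAGGAAGT on both strands. RefSeq start site windows (GRCm38.p6; 250 bases before to 50 bases after the start, 300 bases in all) were matched for 32 of 42 genes, giving 40 windows. The motif was present in 2 windows (5.0%), against 3.2% of all 32851 windows, which is close to the background. These windows, of C1qc and Ctss, are shown because they are the 2 that held the motif. Both read 5′ to 3′ on the strand of the gene, and capitals mark the motif, here as its reverse complement, which begins 195 bases before the start of C1qc (chr4:136892865-136893164, minus strand) and 2 bases before the start of Ctss (chr3:95526536-95526835, plus strand).
C1qc: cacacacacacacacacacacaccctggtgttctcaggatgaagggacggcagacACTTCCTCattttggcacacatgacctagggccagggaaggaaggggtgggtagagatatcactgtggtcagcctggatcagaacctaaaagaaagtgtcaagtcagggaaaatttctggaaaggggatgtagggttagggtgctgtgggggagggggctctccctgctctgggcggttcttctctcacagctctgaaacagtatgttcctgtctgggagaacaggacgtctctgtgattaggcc
Ctss: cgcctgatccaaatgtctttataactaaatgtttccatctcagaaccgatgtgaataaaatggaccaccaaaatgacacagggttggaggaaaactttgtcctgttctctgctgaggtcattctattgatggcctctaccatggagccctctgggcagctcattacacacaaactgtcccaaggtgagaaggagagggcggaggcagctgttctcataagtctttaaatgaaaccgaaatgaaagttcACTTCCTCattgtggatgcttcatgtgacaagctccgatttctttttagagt

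The 7 genes of the microglia group did not move as one. Their median log2 ratio of 1.44 lay 0.075 above the pan-macrophage median, but single genes ranged from -1.002 to 3.49, and 5 were called higher in the extracranial-labelled library. Fcrls, an Fc receptor-like scavenger receptor, had 1733 counts (49.9 CPM, 47.6 to 52.3) in the intracranial-labelled library and 14944 counts (558.5 CPM, 549.5 to 567.5) in the other. This was 11.2-fold, the largest ratio of all 42 genes (log2 3.49, 3.41 to 3.56), and it exceeded the pan-macrophage median by 2.12. Per kilobase, Fcrls stood at 0.325 of Csf1r in the intracranial-labelled library and at 1.05 in the other.

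Cx3cr1, the fractalkine receptor, followed with 5357 and 15705 counts, or 154.2 and 586.9 CPM (1.93, 1.88 to 1.97). The ADP receptor P2ry12 had 609 and 1272 counts (1.44, 1.30 to 1.58), and the lysophosphatidylserine receptor Gpr34 1132 and 1967 counts (1.17, 1.07 to 1.28). Siglech, a lectin of microglia and plasmacytoid dendritic cells, was scarce at 12 and 58 counts (2.65, 1.74 to 3.68). In contrast, Tmem119 was measured at 92.4 CPM in the intracranial-labelled library and 68.6 CPM in the other (-0.43, -0.51 to -0.35), a difference of -1.79 from the pan-macrophage median. Olfml3, a secreted protein, was the most abundant of the 7 in the intracranial-labelled library, with 25617 counts there against 9850 (-1.002, -1.04 to -0.97), just short of a call. Tmem119 is also a gene of osteoblasts and Olfml3 one of stromal cells, and both tumors held stromal RNA. The 8 fibroblast genes summed to 4620 and 6054 CPM, with a median log2 ratio of 0.31, and were split. Of these, 5 had ratios above 1, with the largest for Lum (4.54) and Dcn (2.87). Pdgfra (-0.98), Col1a1 (-0.33) and Col3a1 (-0.29) had ratios below 1, as Tmem119 and Olfml3 did. The part of stromal cells in the levels of Tmem119 and Olfml3 was not tested.

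Of 8 other genes used to recognize microglia, 2 were called higher in the extracranial-labelled library and none lower, with a median of 0.86 over 7 genes with a ratio, below the pan-macrophage median of 1.36. P2ry13, an ADP receptor next to P2ry12 in function, had 516 and 1199 counts (1.59, 1.44 to 1.74). Sall1, a transcription factor that separates microglia from other macrophages, had only 3 and 0 counts, at or under the floor in both libraries. The label intracranial went with lower, not higher, levels of Cx3cr1, P2ry12, Gpr34, Fcrls and the scarce Siglech. Tmem119 and Olfml3 were higher under that label, though neither was called. The group is therefore referred to by its list, not as a measure of microglia.

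**Figure D3:**
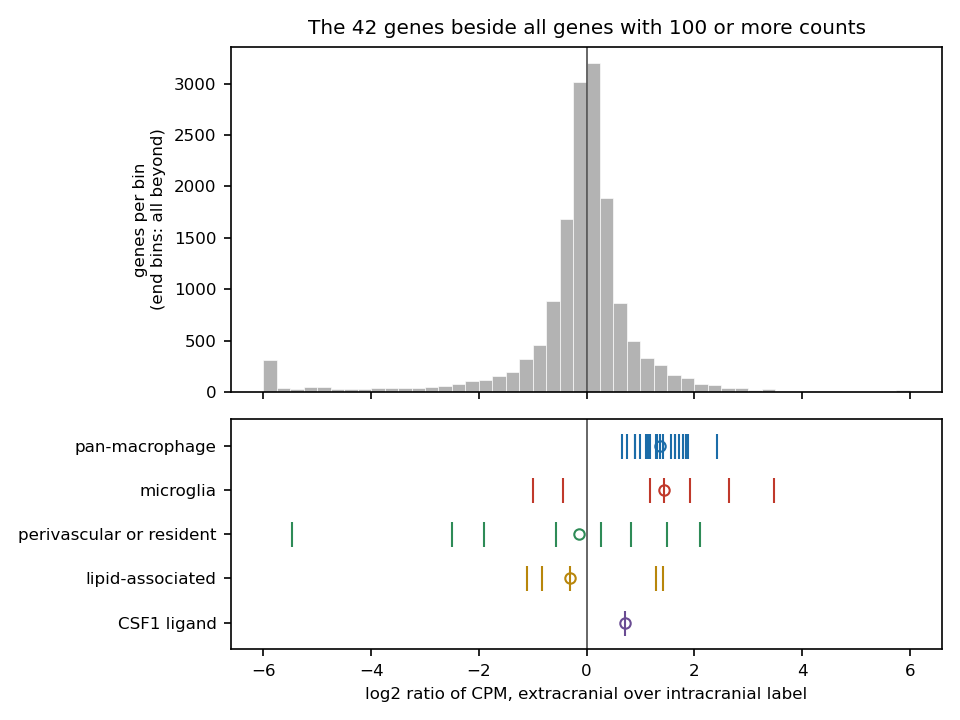
Log2 ratios of the 42 genes by group (ticks, with circles at the group medians) below a histogram of all 15582 genes with at least 100 counts, whose end bins collect all values beyond the axis. The pan-macrophage ticks lie right of the bulk of genes, whose median is -0.01, while the perivascular or resident and lipid-associated groups spread to both sides of 0.

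Perivascular or resident macrophage genes had the widest range of log2 ratios among the groups, from -5.46 for Lyve1 to 1.50 for Mrc1 even without the scarce Timd4. Of 8 genes, 1 was called higher in the extracranial-labelled library, 2 were called higher in the intracranial-labelled library and 5 were not called, and their median log2 ratio of -0.15 differed from that of the pan-macrophage genes by -1.51. Mrc1, the mannose receptor CD206, went with the pan-macrophage genes at 7808 and 16988 counts, or 224.7 and 634.8 CPM (1.50, 1.46 to 1.54). Cd163, the scavenger receptor for hemoglobin and haptoglobin, had 3507 counts (100.9 CPM, 97.6 to 104.3) in the intracranial-labelled library and 480 counts (17.9 CPM, 16.4 to 19.6) in the other. It was 5.63-fold higher in the intracranial-labelled library (log2 ratio -2.49, -2.63 to -2.35). Lyve1, a hyaluronan receptor, had 1031 counts (29.7 CPM, 27.9 to 31.5) and 18 counts (0.673 CPM, 0.399 to 1.06), which is 44.1-fold (-5.46, -6.22 to -4.80). Against Mrc1, which marks the same cells in many tissues, Cd163 stood at 0.524 per kilobase in the intracranial-labelled library and at 0.0330 in the other, and Lyve1 at 0.288 and 0.00231.

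Lyve1 also marks lymphatic endothelium. Of the 5 lymphatic genes, Prox1, the defining transcription factor, had 9 counts in each library, Flt4 had 101 and 109, and only the chemokine Ccl21a was called (43 and 1 counts, log2 interval -10.39 to -2.49). Pdpn, at 17169 and 9355 counts, made up most of the list's sum of 500.4 and 358 CPM. Pdpn was not called, but like Ccl21a it was lower in the extracranial-labelled library, whereas 3 of the 5 genes had ratios above 1. The part of lymphatic endothelium in the difference of Lyve1 was not tested.

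The other resident genes were low or within the limit for a call. Folr2, the folate receptor beta, had 104 and 141 counts (0.82, 0.44 to 1.20). Timd4, a receptor for phosphatidylserine on apoptotic cells, had 1 and 10 counts, with a log2 interval of 0.89 to 9.14, and the scavenger receptor Marco 39 and 8 counts (-1.91, -3.22 to -0.79). Mertk and Axl, TAM receptor tyrosine kinases that bind apoptotic cells through Gas6 and Pros1, were not called either. Mertk had 1168 and 606 counts (-0.57, -0.71 to -0.43), and Axl, which fibroblasts and tumor cells can also express, 15908 and 14790 counts (0.27, 0.24 to 0.30). Tyro3, the remaining TAM receptor, had 423 and 47 counts and was called lower in the extracranial-labelled library (-2.79, -3.26 to -2.36), whereas Gas6 was called higher there (3814 and 7224 counts; 1.30, 1.24 to 1.36). Of 12 further genes of resident macrophages, 4 were called higher in the extracranial-labelled library and none lower, with a median of 0.98 over 9 genes. Among these, the selenium carrier Selenop had 9244 and 30358 counts (2.09, 2.06 to 2.13), the lectin Clec10a 151 and 682 (2.55, 2.30 to 2.82) and the scavenger receptor Stab1 8481 and 16216 (1.31, 1.27 to 1.35), while Cd209f, Cd209g and Clec4f were at or under the floor in both.

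The lipid-associated genes fell into 2 parts. Trem2, the lipid-sensing receptor that signals through Tyrobp, had 3163 and 6530 counts, or 91.0 and 244 CPM (1.42, 1.36 to 1.48). Apoe, the apolipoprotein that loads lipid for transport, had 135140 and 255492 counts, or 3889 CPM (3869 to 3910) and 9548 CPM (9511 to 9585), with a log2 ratio of 1.30 (1.29 to 1.31). Apoe alone made up 26.9% and 30.6% of the summed CPM of the 42 genes, and Lyz2 another 20.4% and 14.9%. Without these genes the sum was still 2.23-fold higher in the extracranial-labelled library (7625 and 16990 CPM). Trem2 and Apoe lay within 0.07 of the pan-macrophage median, and the per-kilobase ratio of Trem2 to Tyrobp was 0.0677 and 0.0820.

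The other 3 genes of this group had ratios below 1, and none was called. Lgals3 (galectin-3) had 5963 and 2591 counts (-0.83, -0.89 to -0.76), Msr1, the class A scavenger receptor, 5148 and 3190 counts (-0.31, -0.38 to -0.25), and Gpnmb, a glycoprotein of lipid-laden macrophages, osteoclasts and pigment cells, only 135 and 48 counts (-1.12, -1.62 to -0.63). The group's median was -0.31, set by Msr1, although its summed level, dominated by Apoe, was 2.33-fold higher in the extracranial-labelled library. Squamous epithelium also expresses Lgals3. The difference in keratinocyte genes given above moves with it, and its part in the result was not tested. Genes of lipid handling that are not members were mixed as well, with 5 of 12 called higher in the extracranial-labelled library and 2 called lower (median 0.82). The cholesterol exporters Abca1 (2959 and 6410 counts; 1.49, 1.43 to 1.56) and Abcg1 (1681 and 4103; 1.66, 1.58 to 1.75) and the lipase Lpl (203 and 1613; 3.37, 3.16 to 3.58) were higher there, whereas Cd9 (37272 and 8598; -1.74, -1.77 to -1.71) and Fabp5 (47615 and 412; -6.48, -6.62 to -6.34), both also genes of epithelium, were lower.

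Osteoclasts arise from the same CSF1-dependent lineage, and their genes went the other way. Of 9 osteoclast genes, 8 were called higher in the intracranial-labelled library, and the list summed to 1255 and 305.4 CPM, with a median log2 ratio of -1.97. Ctsk, the collagen-cleaving cathepsin of osteoclasts, had 19658 and 2575 counts (-2.56, -2.62 to -2.50), and Acp5, the tartrate-resistant acid phosphatase, 10014 and 1802 counts (-2.10, -2.17 to -2.02). Nfatc1, which many cells express, was the exception at 1272 and 1086 counts and was not called. Ctsk is found in fibroblasts too, and Mmp9 (11078 and 2429 counts) in neutrophils.

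Of the ligands, Csf1 had 9445 and 11959 counts, or 271.8 and 446.9 CPM (0.72, 0.68 to 0.76), and was not called. Per kilobase, Csf1 was at 0.782 of its receptor Csf1r in the intracranial-labelled library and at 0.370 in the other. Il34, the second ligand of Csf1r, had 398 and 1341 counts and was called higher in the extracranial-labelled library (2.13, 1.97 to 2.29), where it reached 0.302 of Csf1 per kilobase, compared with 0.114. Among the granulocyte and granulocyte-macrophage factors, Csf3 had 403 and 0 counts, so that against the floor it was at least 103-fold higher in the intracranial-labelled library, and Csf2 had 27 and 3 counts (-2.79, -5.16 to -1.09). Both were called on that side. Their receptors were higher in the extracranial-labelled library, with Csf3r at 692 and 1542 counts (1.53, 1.40 to 1.66) called, and Csf2ra and Csf2rb, at 1991 and 2859 counts and 1287 and 2118 counts, not called.

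Per kilobase of exon, the order of the most abundant members was nearly the same in both tumors. In the intracranial-labelled library, Lyz2 ranked highest at 2241 CPM per kilobase, followed by Apoe (1819), C1qa (649.8), C1qb (618), Ctss (603), C1qc (309.8), Tyrobp (272) and Fcer1g (153). In the extracranial-labelled library, Apoe (4466) and Lyz2 (3542) changed places, and C1qa (1929), C1qb (1592), Ctss (1129), C1qc (961), Tyrobp (602) and Fcer1g (502) kept theirs. Larger moves occurred further down. Fcrls went from rank 27 of 42 to rank 11 and Aif1 from 22 to 13, while Olfml3 went from 9 to 23, Lgals3 from 13 to 25, Tmem119 from 19 to 30 and Cd163 from 28 to 37. With 1 library each, no spread can be put on these ranks.

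Genes that work with the members were read from lists outside the 42. Of 14 immunoreceptor signaling genes, 8 were called higher in the extracranial-labelled library and 1 lower, with a median of 1.17. The Src family kinase Lyn (2590 and 5769 counts; 1.53, 1.47 to 1.60) was among the 8, whereas Syk, the kinase that Tyrobp and Fcer1g recruit, was not called at 4651 and 2219 counts (-0.69, -0.76 to -0.62). Trem1, a receptor of neutrophils and monocytes, was the 1 called lower, with 366 and 16 counts. Of 18 complement genes, 5 were called higher and 2 lower, around a median of -0.12. The proteases that form the C1 complex with C1q, C1ra (5590 and 1803 counts; -1.26, -1.33 to -1.18) and C1s1 (6232 and 826; -2.54, -2.65 to -2.43), were the 2 lower genes and thus opposite to C1qa, C1qb and C1qc, while C4b, their substrate, was higher (2932 and 15420; 2.77, 2.71 to 2.83). C1ra and C1s1 are made largely by stromal cells. The anaphylatoxin receptor C3ar1 (3297 and 7112 counts; 1.49, 1.43 to 1.55) and the integrin Itgam (2909 and 5161; 1.20, 1.14 to 1.27) were called higher as well. Lysosomal genes of phagocytes, which most cells share, had a median of 0.47, with 3 of 14 (among them Lgmn, at 15605 and 27242 counts) called higher and none lower.

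Monocyte genes were split. Ccr2, the chemokine receptor of inflammatory monocytes, had 2065 counts (59.4 CPM) in the intracranial-labelled library and 14296 counts (534.2 CPM) in the other (3.17, 3.10 to 3.24), and Ace 409 and 4029 counts (3.68, 3.53 to 3.83). Ly6c2, which marks the same monocytes as Ccr2, was instead called lower in the extracranial-labelled library (1085 and 362 counts; -1.21, -1.38 to -1.03), as was Chil3 (5601 and 17 counts; -7.99, -8.77 to -7.31), which neutrophils also express. Their list of 9 had a median of 0.09. MHC class II genes, which macrophages, dendritic cells and B cells use to present antigen, were called higher in 7 of 7 cases, and their median of 2.90 lay 1.54 above that of the pan-macrophage genes. H2-Aa had 11182 and 77805 counts (3.18, 3.15 to 3.20) and the transactivator Ciita 174 and 1363 counts (3.35, 3.12 to 3.58).

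Lists of other immune and vascular cell types held some genes called higher in the extracranial-labelled library, but most of their genes were not called. Median log2 ratios were 1.73 for conventional dendritic cell, 1.44 for T and NK cell and 2.38 for B and plasma cell genes. Each of these medians lay above the pan-macrophage median of 1.36, so a shift in this direction was not particular to macrophage genes. Conventional dendritic cell genes, with 3 of 6 called higher in the extracranial-labelled library, summed to only 8.17 and 26.4 CPM, the 10 T and NK cell genes, with 4 called higher, to 15.3 and 36.5 CPM, and the 8 B and plasma cell genes, with 3 called higher, to 16.5 and 327.8 CPM. The CD3 chains Cd3d (73 and 70 counts), Cd3e (61 and 48) and Cd3g (224 and 195) were not called. The 4 called T and NK cell genes were the T cell receptor chain Trac (30 and 116), Cd4 (20 and 172), Cd8a (17 and 222) and Cd8b1 (12 and 92). Ighm, with 458 and 8069 counts, made up most of the B and plasma cell sum, and Cd79a, at 19 and 15 counts, was not called. The 7 blood endothelial genes had a median of 1.14, with 3 called higher (Cdh5, 750 and 1600 counts). Plasmacytoid dendritic cell genes other than Ly6d, which had 7359 and 9 counts and is also a keratinocyte gene, had 100 counts or fewer in each library. Mast cell genes had 0 counts for 5 of 7 in the extracranial-labelled library, and melanocyte genes had 47 or fewer counts in both. The sums of the dendritic, T, NK and B cell lists were small beside the 31199 CPM of the 42 genes in the extracranial-labelled library. Such sums depend on which genes were listed and do not measure the share of RNA from a cell type. The part of these cells in the members' differences was not tested.

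**Figure D4:**
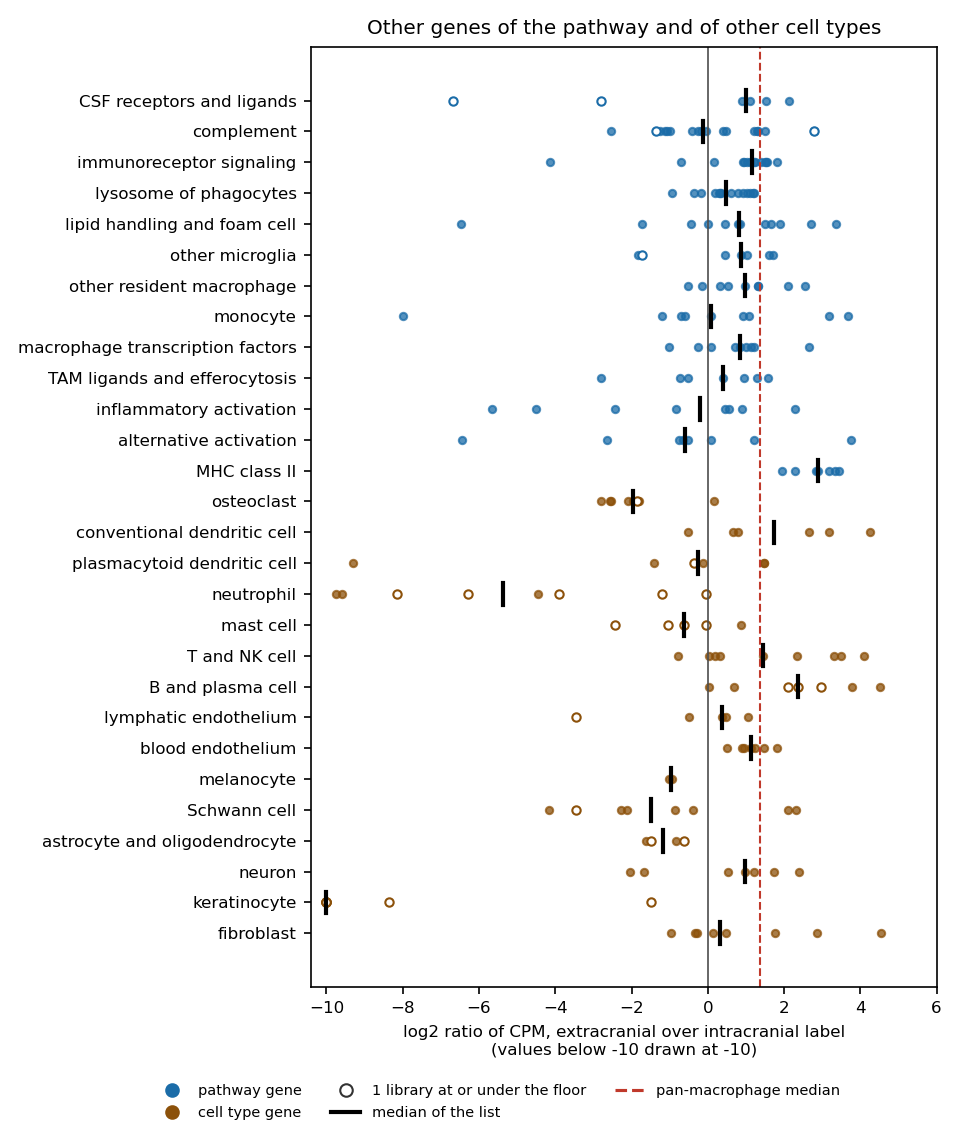
Log2 ratio of CPM, extracranial over intracranial label, for each gene of the other pathway lists (blue) and cell type lists (brown), with black bars at list medians, open circles where 1 library was at or under 3 counts, and the pan-macrophage median of 1.36 as a dashed line. Immunoreceptor signaling (1.17) and blood endothelium (1.14) lie closest below that line. MHC class II (2.90), B and plasma cell (2.38), conventional dendritic cell (1.73) and T and NK cell (1.44) genes lie right of it. Osteoclast (-1.97), neutrophil (-5.37) and keratinocyte genes lie far to the left.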

How the data were processed

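Total RNA of 2 tumors was poly(A)-selected, made into directional libraries and sequenced as single reads. Per the study's methods and the labels, the authors aligned the reads with STAR (2.7.9a) at default parameters to the Ensembl mouse reference (GRCm39) and counted them with featureCounts. The deposited values are raw counts per Ensembl gene, with no normalization, 1 column per tumor, and they were used as deposited. The strand setting of the counting and its treatment of reads with several alignments are not given in the sources used here, so counts of Lyz2, Fcgr2b, Fcgr3 and other genes with close relatives, and of 5 members whose exons overlap another gene, are uncertain to that extent.

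Symbols and summed exon lengths came from GENCODE release 21 of the mouse (GRCm38), which is older than the authors' annotation, and 93.99% of 55416 genes had a symbol. Exon overlaps and gene order come from that annotation, and printed coordinates from the RefSeq promoter windows. Neither was joined to positions in the authors' build. Library sizes were scaled with TMM in edgeR 4.0.16 (R 4.3.3; factors 1.006 and 0.994), CPM are counts over these sizes, and levels have exact Clopper-Pearson 95% intervals. Ratios have conditional exact binomial 95% intervals and were computed for all genes. Genes with 10 or more counts over both libraries could be called. Counts of 3 or fewer were set to 3 for ratios, and genes at or under 3 in both have none. With 1 library per label, the quasi-likelihood test could not be fitted and no p-value is given. Reads carry no molecular identifiers, so intervals and floors cover counting error only. The procedure was tested on simulated counts (Python 3.11.15, SciPy 1.17.1).

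The 42 genes, the other lists and the alternatives were chosen with earlier results of these data known, and lists were written from general knowledge. Every member is named. Other genes are named only from these lists, except Lyz1, Hmgxb3 and Smarcb1, of which Lyz1 and Hmgxb3 were picked for sharing sequence with a member. Scaling by upper quartile, by total counts and by the size factors of DESeq2 1.42.0, other limits and count minimums, an assumed biological variation, a prior count of 2 and CPM per kilobase were tried as alternatives.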

Additional observations from a re-analysis of the deposited data

How the results depend on the processing

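No paired analysis was possible because each label had 1 library, and leaving out a library was impossible for the same reason. The 3 other scalings moved every log2 ratio by -0.02 to 0.04. Over 168 alternative values of the 42 member ratios, 0 changed sign, and the largest shift was 0.26. The 24 genes called higher in the extracranial-labelled library were 2 beyond 4-fold, 23 to 25 under the other count minimums, the scalings and the ratio alone, and 1 (Fcrls) in an exact test of edgeR that assumes a biological coefficient of variation of 0.4 (Benjamini-Hochberg threshold 0.05). The 2 genes called in the other direction were 5 by the ratio alone and 1 (Lyve1) with the assumed variation. Thus, if tumors of one location varied that much, only Fcrls and Lyve1 would pass. The members' median stayed between 1.18 and 1.27. The microglia median minus the pan-macrophage median, 0.075, was -0.058 where 100 or more counts were required, which drops Siglech, so its sign depends on that minimum. The log2 ratio of the members' summed level, 1.11, was 1.12 with DESeq2 size factors, 1.09 with total counts, 1.15 with the upper quartile, 1.13 per kilobase and 1.18 without 7 members that other cell types also express.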

Other observations

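Genes of macrophage activation did not follow the pan-macrophage genes. Of 8 inflammatory genes, 3 were called higher in the intracranial-labelled library, namely Il6 (523 and 8 counts; log2 ratio -5.65, 95% interval -6.87 to -4.66), Il1a (497 and 17; -4.49, -5.28 to -3.80) and Nos2 (487 and 69; -2.44, -2.83 to -2.08), and Il12b was called higher in the other at 8 and 30 counts. Il1b, at 2450 and 2559 counts (0.44, 0.36 to 0.52), and Tnf, at 230 and 260, were not called. Of 8 genes of alternative activation, Arg1 (6734 and 59 counts; -6.46, -6.85 to -6.09) and Retnla (146 and 18; -2.64, -3.44 to -1.93) were called higher in the intracranial-labelled library, and Il10 (5 and 52 counts; 3.76, 2.44 to 5.44) higher in the other. The medians of the lists were -0.20 and -0.60, against 1.36 for the pan-macrophage genes, and their summed levels were 174.4 and 154.9 CPM and 304.6 and 112.4 CPM. Epithelial cells and neutrophils also express several of these genes, and they were called in the same direction. Their part in the result was not tested.

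Among 9 transcription factors of macrophages other than Spi1 and Irf8, 3 were called higher in the extracranial-labelled library and none lower, with a median of 0.85. Batf3, which dendritic cells need, had 110 and 528 counts (2.64, 2.34 to 2.95), Irf5 1524 and 2707 (1.21, 1.11 to 1.30) and Irf1 1710 and 2888 (1.13, 1.05 to 1.22). Klf4, also an epithelial factor, had 9302 and 3558 counts (-1.01, -1.07 to -0.95) and was not called. Of the 7 genes of TAM ligands and efferocytosis, Gas6 and the guanine nucleotide exchange factor Dock2 (1101 and 2520 counts; 1.57, 1.47 to 1.67) were called higher and Tyro3 lower, with a median of 0.40.

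Schwann cell and neuron genes are of interest for a tumor labelled at the trigeminal nerve. Of 8 Schwann cell genes, 4 were called higher in the intracranial-labelled library and 2 (Egr2, 630 and 2396 counts, and Mag, 86 and 282) higher in the other, with summed levels of 239.2 and 249.3 CPM. Of 7 neuron genes, 3 were called higher in the extracranial-labelled library and 2 higher in the intracranial-labelled library. Egr2 is expressed by myeloid cells as well.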
